A study of Rattus norvegicus with 8 samples.

Results

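The genes described here are 28 genes of sterol and fatty acid synthesis, measured in retinal cells that had received a Klf4 plasmid or a control plasmid. They were chosen by name: 18 enzymes on the route from acetyl-CoA to cholesterol, 5 regulators and carriers of sterols, and 5 enzymes of fatty acid synthesis. All 28 were on the array, among 16581 gene symbols, and all 28 passed the filter on dim probes, among 29988 genes and unnamed features tested.

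Cholesterol is built from acetyl-CoA by way of mevalonate, isoprenoids, squalene and lanosterol, and fatty acids are built from the same precursor by way of malonyl-CoA. Membrane-bound transcription factors, the sterol regulatory element binding proteins (SREBPs), switch on most of these genes: the product of Srebf2 acts mainly on sterol genes and that of Srebf1 mainly on fatty acid genes. When sterols are plentiful, the Insig proteins hold the SREBPs in the endoplasmic reticulum, and the pathway is turned down. In the retina, new membrane is needed by growing axons and by the outer segments of photoreceptors, and the retina makes sterol locally besides taking it up.

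The study asked how overexpression of Klf4, a zinc-finger transcription factor, alters transcription in the newborn retina. Retinas of Lister hooded rats at postnatal day 0, dissected and electroporated in vitro with pulses of 25 V and 50 ms, received a control plasmid in 1 group (4 arrays) and a Klf4 plasmid in the other (4 arrays). The explants were cultured for 39 hours, and GFP-positive cells, those that took up plasmid, were sorted before RNA extraction. The electroporation reaches whichever cells take up DNA, no promoter or cell type of expression was given, and the arrays, numbered 2 to 5 in both groups, were not said to come from separate animals or cultures, so that p-values measure only the spread between these arrays, which may be technical.

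The 8 single-colour arrays lay on 1 slide. Control replicate 5 had the lowest 75th percentile signal, 731.7, and control replicate 3 the highest, 1717.8. Spots well above background made up 71.93% (on Klf4 replicate 4) to 86.45% (on Klf4 replicate 2). Both arrays numbered 5 belonged to a second scan, and both arrays numbered 4 lay outside the quality limits of the software that extracted the spots. Controls occupied slide columns 1 and 3 and Klf4 arrays columns 2 and 4, so column and group cannot be told apart. The probe for Klf4 itself read -3.87 to -2.45 on the control arrays and -3.70 to -1.74 on the Klf4 arrays (log2 difference 0.27, SE 0.46, limma adjusted p = 0.916). Whether the plasmid carries the sequence this probe reads was not stated, so the probe gives no check of the labels.

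All levels below are log2 signals relative to the 75th percentile of the array, at which a level is 0. Differences are Klf4 minus control in log2 units, with the standard error (SE) of the limma fit. A gene was called higher or lower at an adjusted p under 0.05 (limma, two-sided, Benjamini-Hochberg over all 29988 features). Levels of different genes come from different probes and are not compared.

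Of the 28 genes, 5 rose with Klf4: the desaturase gene Scd, the sterol reductase genes Tm7sf2 and Dhcr7, the thiolase gene Acat2 and the transcription factor gene Srebf1. None fell with limma, 23 did not pass, and all 8 genes with an unadjusted p under 0.05 lay above 0, the 5 called ones among them. Over all features, 3577 of 29988 had an unadjusted p under 0.05 (limma), in either direction. The 5 rises are 17.9% of the genes, where 3.20% of all features tested rose and 0.467% fell. With Klf4 above control on every array were 8 genes, namely these 5 and Pmvk, Fdps and Insig1, where 5.74% of all features were so. The median difference over the 28 genes was 0.25, against -0.07 over all features, and 23 of the 28 (82.1%) lay above 0, against 39.0% of all features. Because the genes were chosen with earlier results of these data known, these shares describe the list and no test was made of it.

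**Figure D1:**
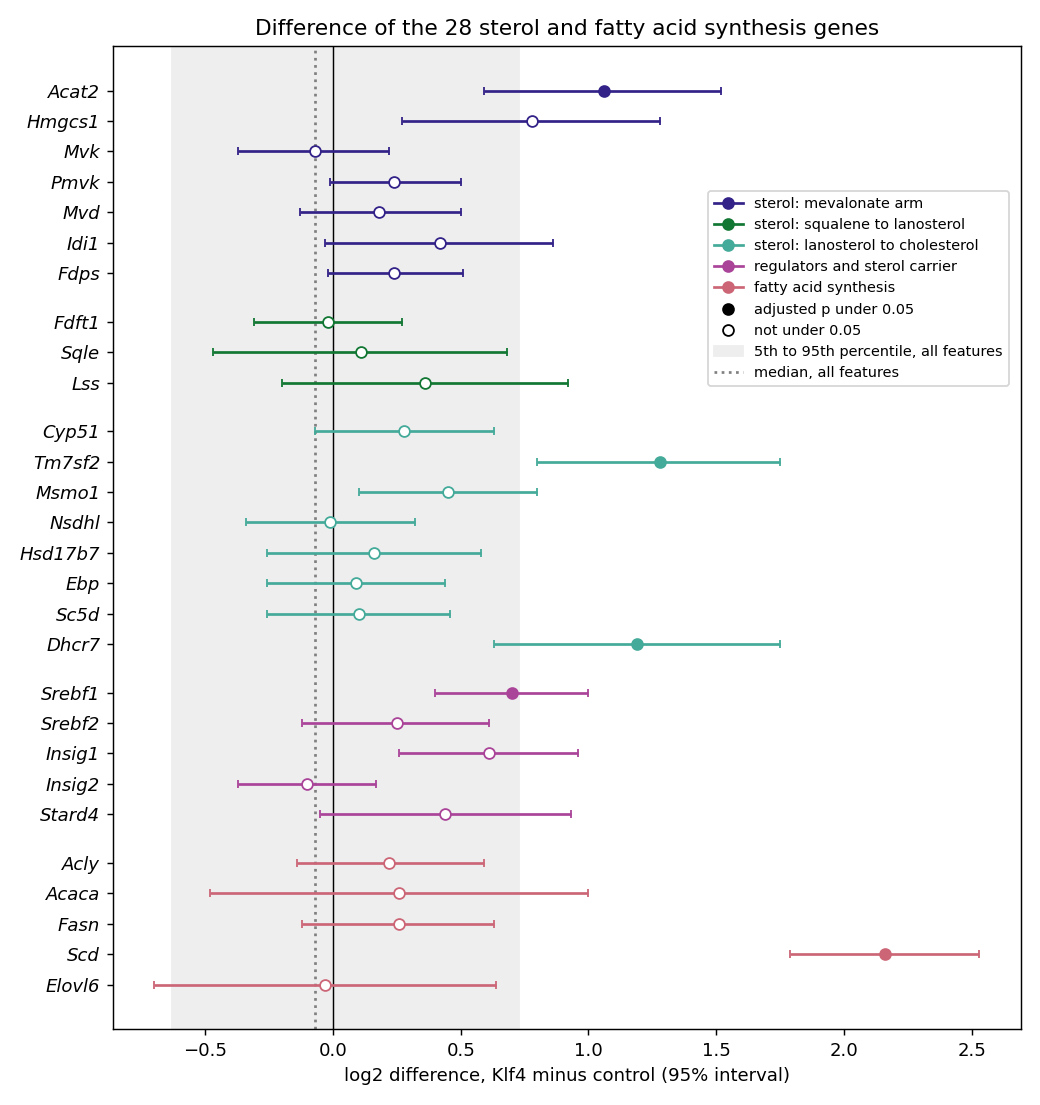
Log2 difference between Klf4 and control (horizontal axis, with the 95% interval of the limma fit) of the 28 genes, grouped by their place in the pathway. Filled points mark the 5 genes with an adjusted p under 0.05, the dotted line the median of all features (-0.07) and the grey band their 5th to 95th percentile (-0.63 to 0.73); Scd (2.16) stands farthest to the right.

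The rise of Scd was the largest among the 28 genes. Scd encodes stearoyl-CoA desaturase, which puts the first double bond into saturated fatty acids. Its level was -3.07, -2.77, -2.61 and -2.68 on control replicates 2 to 5 and -0.76, -0.72, -0.71 and -0.29 on Klf4 replicates 2 to 5. All 4 Klf4 arrays lay far above all 4 controls. The spread within each group was small beside that distance, with Klf4 replicate 5 apart from the other Klf4 arrays. The mean went from -2.78 ± 0.20 to -0.62 ± 0.22 (SD, n = 4 each), a difference of 2.16 (SE 0.16, 95% interval 1.79 to 2.53, limma adjusted p = 0.000246), which is 4.48-fold. Arrays of the first scan differed by 2.09 and those of the second by 2.39. Whether the probe also reads other Scd genes was not tested. Scd kept its call in all 21 alternatives of the processing (1.76 to 2.25).

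The other fatty acid genes did not pass. Fasn, the fatty acid synthase, read 3.43, 3.56, 3.38 and 3.98 in the controls and 3.74, 3.76, 3.84 and 4.03 with Klf4. Klf4 replicates 2, 3 and 4 thus lay below control replicate 5, and the difference was 0.26 (SE 0.17, limma adjusted p = 0.66). Acly, which supplies acetyl-CoA from citrate, differed by 0.22 (SE 0.16, adjusted p = 0.71 with limma), with 5.09 on Klf4 replicate 4 and 4.41 to 4.75 on the other 7 arrays. Acaca, the carboxylase that makes malonyl-CoA, differed by 0.26 (SE 0.32), but this rests on Klf4 replicate 4, at 0.06 where the other 7 arrays read -1.55 to -0.96; without that array the difference was -0.07. Its other probe gave -0.64, with Klf4 replicate 4 at -4.42, so the probes of Acaca disagree in sign. Elovl6, which lengthens palmitate, differed by -0.03 (SE 0.29) over 3 control arrays, since its spot on control replicate 2 was an outlier, and Klf4 replicate 4 was again the highest, at 2.60.

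Among the 7 genes of the mevalonate arm, Acat2 rose and 6 did not pass, with a median difference of 0.24. Acat2 encodes the cytosolic thiolase that condenses acetyl-CoA at the entry of the pathway. It read 2.10, 2.40, 2.37 and 2.47 in the controls and 3.57, 3.33, 2.89 and 3.77 with Klf4. No Klf4 array overlapped the controls, and Klf4 replicate 4 was the nearest to them. The mean went from 2.34 ± 0.16 to 3.39 ± 0.38 (SD, n = 4 each), a difference of 1.06 (SE 0.20, 95% interval 0.59 to 1.52, limma adjusted p = 0.0246), 2.08-fold. Its 4 probes all gave a positive difference, 0.70 to 1.06, and only the brightest, used here, passed over all probes (adjusted p = 0.0247 with limma, against 0.249 to 0.411). Acat2 lost its call in 11 of the 21 alternatives: without any 1 of control replicates 2, 3 and 4 and Klf4 replicates 2, 3 and 5 (adjusted p 0.0631 to 0.0927), and with the mean over probes (0.178), the first scan alone (0.0911), quantile normalization (0.051), the authors' values (0.0511) or the replicate number as a block (0.0538).

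Hmgcs1, the synthase that makes HMG-CoA, stood next in this arm but did not pass. It read 1.82, 2.11, 2.16 and 2.59 in the controls and 2.59, 2.73, 3.18 and 3.28 with Klf4, so the highest control and the lowest Klf4 array met at 2.59. The difference was 0.78 (SE 0.22, 95% interval 0.27 to 1.28, limma adjusted p = 0.129), and it passed with the scan (0.0392), the slide row (0.0332) or the replicate number (0.0386) as a block and with array weights (0.018). Pmvk, a mevalonate pathway kinase, read -0.11 to -0.03 in the controls and 0.09 to 0.31 with Klf4, without overlap, yet its difference of 0.24 (SE 0.11) had an adjusted p of 0.449 with limma. Fdps, which makes farnesyl diphosphate, was alike: 1.98 to 2.17 in the controls, 2.24 to 2.45 with Klf4, a difference of 0.24 (SE 0.12) and a limma adjusted p of 0.483. Idi1, the isomerase, differed by 0.42 (SE 0.19) and by 0.45 with its other probe, and its groups overlapped. Mvd, the decarboxylase, differed by 0.18 (SE 0.14), and Mvk, mevalonate kinase, by -0.07 (SE 0.13).

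**Figure D2:**
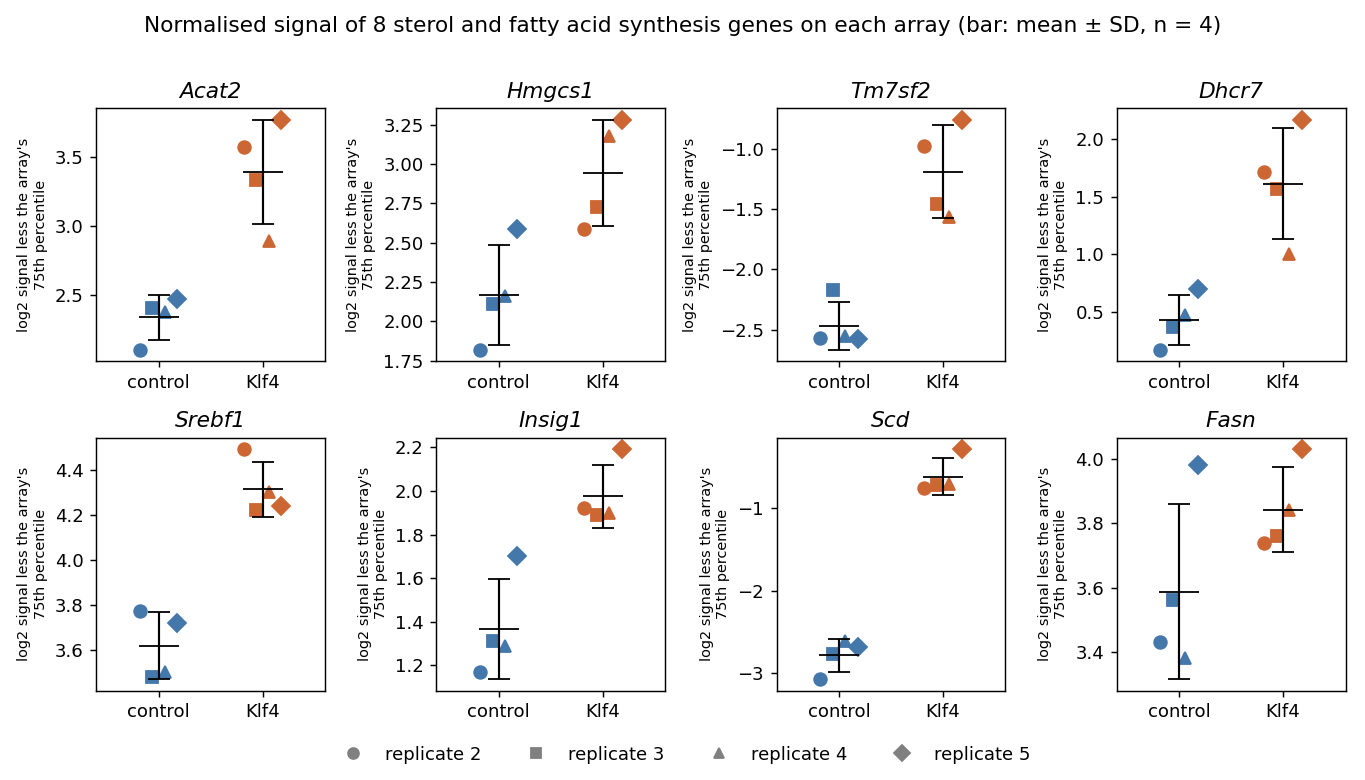
Level of 8 genes on each array (log2 signal less the 75th percentile of the array, vertical axis, a scale of its own for each gene), control in blue and Klf4 in orange, with mean ± SD (n = 4 each) and the symbol giving the replicate number. In Scd, Tm7sf2, Acat2, Dhcr7, Srebf1 and Insig1 every Klf4 array lies above every control, while in Fasn control replicate 5 (3.98) lies above 3 of the Klf4 arrays and in Hmgcs1 the groups meet at 2.59.

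None of the 3 genes between squalene and lanosterol passed with limma, and 0 had an unadjusted p under 0.05. Fdft1, squalene synthase, read 5.51 to 5.83 in the controls and 5.52 to 5.77 with Klf4, a difference of -0.02 (SE 0.13, 95% interval -0.31 to 0.27) that was 0.01 with the array median. Sqle, the epoxidase and a control point of the pathway, read 2.09, 2.14, 2.06 and 2.91 in the controls and 2.10, 2.39, 2.22 and 2.91 with Klf4. Both arrays of the second scan were the high ones, at 2.91 each, and the difference between groups was 0.11 (SE 0.25, limma adjusted p = 0.95). Lss, lanosterol synthase, differed by 0.36 (SE 0.24), with Klf4 replicate 4 at 1.30; its other probe read 0.14 on that array and differed by 0.09.

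Of the 8 genes between lanosterol and cholesterol, Tm7sf2 and Dhcr7 rose and 6 did not pass. Tm7sf2 encodes a sterol C14 reductase, which acts just after lanosterol demethylation. It read -2.57, -2.17, -2.55 and -2.58 in the controls and -0.98, -1.46, -1.57 and -0.76 with Klf4, with no overlap. The mean went from -2.47 ± 0.20 to -1.19 ± 0.38 (SD, n = 4 each), a difference of 1.28 (SE 0.21, 95% interval 0.80 to 1.75, limma adjusted p = 0.0111), 2.43-fold. Arrays of the first scan differed by 1.10 and those of the second by 1.82. Tested on the first scan only, Tm7sf2 lost its call (limma adjusted p = 0.0611); it kept it in the other 20 alternatives.

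Dhcr7 encodes 7-dehydrocholesterol reductase, the enzyme of the last step to cholesterol. It read 0.17, 0.37, 0.47 and 0.70 in the controls and 1.72, 1.57, 1.0 and 2.17 with Klf4. The groups did not overlap, and Klf4 replicate 4 lay nearest to the controls. The mean went from 0.43 ± 0.22 to 1.62 ± 0.48 (SD, n = 4 each), a difference of 1.19 (SE 0.25, 95% interval 0.63 to 1.75, limma adjusted p = 0.0352), 2.28-fold. Dhcr7 lost its call in 10 of the 21 alternatives, among them the removal of any 1 array but Klf4 replicate 4 (adjusted p 0.0505 to 0.122), no filter on dim probes (0.0648), the slide row as a block (0.056) and the first scan alone (0.0733). Tm7sf2, Dhcr7 and Acat2 shared an order among the Klf4 arrays: replicate 5 was the highest, then 2, then 3, and replicate 4 the lowest. Of all features measured on every array, 27.7% were highest on Klf4 replicate 5 and 37.4% lowest on Klf4 replicate 4. The share with the full order was not counted.

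The 6 other genes of this stretch ranged from -0.01 to 0.45. Msmo1, a sterol methyl oxidase, read 2.75, 2.91, 3.03 and 3.24 in the controls and 3.21, 3.41, 3.50 and 3.61 with Klf4, a difference of 0.45 (SE 0.15, limma adjusted p = 0.233) whose groups touched only at control replicate 5. Cyp51, the lanosterol demethylase, differed by 0.28 (SE 0.15), Hsd17b7, a keto-reductase, by 0.16 (SE 0.18), Sc5d, the desaturase before Dhcr7, by 0.10 (SE 0.16) and Ebp, the sterol isomerase, by 0.09 (SE 0.15). Nsdhl, a decarboxylating dehydrogenase, differed by -0.01 (SE 0.15), and by 0.02 to 0.04 with the array median, quantile normalization or the authors' values.

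Among the regulators, Srebf1 rose and 4 genes did not pass, with a median difference of 0.44. Srebf1 read 3.77, 3.48, 3.50 and 3.72 in the controls and 4.49, 4.22, 4.30 and 4.24 with Klf4. All Klf4 arrays lay above all controls, and the spread within each group was small. The mean went from 3.62 ± 0.15 to 4.32 ± 0.12 (SD, n = 4 each), a difference of 0.70 (SE 0.13, 95% interval 0.40 to 1.0, limma adjusted p = 0.0234), 1.62-fold. Its other probe differed by 0.36 (SE 0.35, limma adjusted p over probes 0.785) and read -0.55 on Klf4 replicate 4. Srebf1 lost its call in 10 of the 21 alternatives: without any 1 of control replicates 2, 3 and 4 and Klf4 replicates 2, 3 and 5 (adjusted p 0.0517 to 0.101), without both arrays numbered 4 (0.0837), in the first scan alone (0.0656), with no filter on dim probes (0.0528) and with the mean over probes (0.35).

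Insig1, a sterol-regulated anchor of the SREBPs and itself one of their targets, read 1.17, 1.31, 1.29 and 1.70 in the controls and 1.92, 1.89, 1.90 and 2.19 with Klf4. The groups did not overlap, but the difference of 0.61 (SE 0.15, 95% interval 0.26 to 0.96, limma adjusted p = 0.0823) did not pass. It passed with the scan as a block (0.0117), in the first scan alone (0.0472), with array weights (0.0021) and without control replicate 5 (0.0309), and its other probe differed by 0.48. Insig2, its paralog, differed by -0.10 (SE 0.12). Srebf2 read 2.41, 2.48, 2.50 and 2.79 in the controls and 2.70, 2.70, 2.63 and 3.14 with Klf4, a difference of 0.25 (SE 0.16, limma adjusted p = 0.66). Stard4, a carrier that moves cholesterol between membranes, differed by 0.44 (SE 0.21), with control replicate 5 (0.53) within the range of the Klf4 arrays. Its other probe read 1.05 on Klf4 replicate 4 and -3.15 to -2.45 on the other 7 arrays.

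A gene that did not pass is not shown to be unchanged. Of the 23 such genes, 20 had a 95% interval that held 0, and 2 had one that reached a 2-fold rise. The half-width of the 95% intervals over the 28 genes was 0.25 to 0.74 (median 0.36). Hmgcs1, Msmo1 and Insig1 had an unadjusted p under 0.05.

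Single arrays stood apart within the groups. Taking each gene's departure from its control mean, the median over the 28 genes was -0.16, -0.04, -0.05 and 0.18 on control replicates 2 to 5 and 0.11, 0.16, 0.52 and 0.46 on Klf4 replicates 2 to 5. Control replicate 5 thus lay above Klf4 replicates 2 and 3 on this measure. The median over all features stayed between -0.06 and 0.04 on the 8 arrays. Of the 27 genes measured on every array, 20 had their highest control value on control replicate 5 (74.1%, against 37.5% of all features), and 15 had their lowest on control replicate 2 (55.6%, against 18.2%). With Klf4, 16 of the 27 were highest on replicate 5 (59.3%, against 27.7%) and 12 lowest on replicate 2 (44.4%, against 19.0%). For the squalene to lanosterol genes the median departure was 0.42 on control replicate 5 and 0.51 on Klf4 replicate 5, against -0.21 to 0.05 on the other 6 arrays. For the fatty acid genes it was highest on Klf4 replicate 4, at 0.73. Both arrays numbered 5 made up the second scan; the part of scan or array quality in these departures was not tested, and the 5 rises kept a positive difference within each scan (0.76 and 0.52 for Srebf1, 0.97 and 1.30 for Acat2, 1.09 and 1.47 for Dhcr7).

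**Figure D3:**
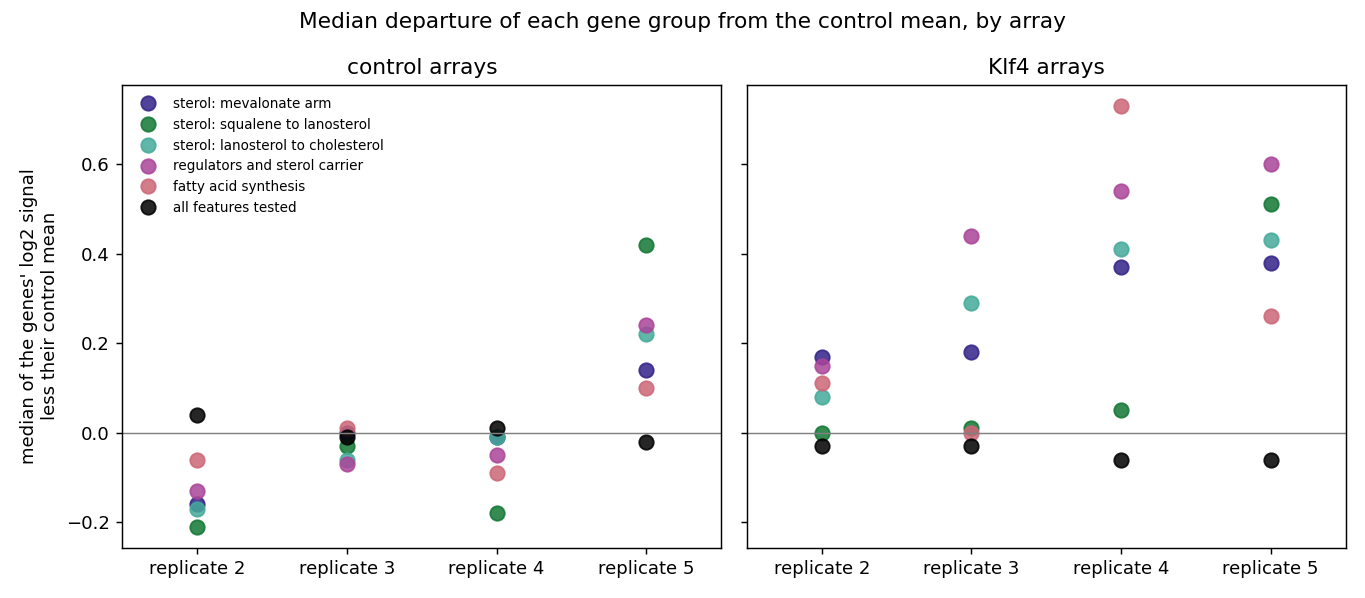
Median, over the genes of each step of the pathway, of the log2 signal less the control mean of the gene (vertical axis) on each array, controls on the left and Klf4 on the right. All features tested (black) stay between -0.06 and 0.04, while the squalene to lanosterol genes reach 0.42 on control replicate 5 and 0.51 on Klf4 replicate 5.

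Promoter sequence was examined as a description. The genes were chosen by pathway, so a motif common at sterol genes is not independent of the choice. RefSeq windows (assembly GRCr8) were available for 21 of the 28 genes, and the 250 bases before each transcription start were searched on both strands. The CCAAT box (CCAAT), bound by nuclear factor Y, which acts beside SREBPs at many sterol genes, was found at 17 of 21 genes (81.0%), against 34.0% of all 33469 windows. A KLF box (GGGNGTGG), the kind of GC-rich site that Klf factors bind, was found at 7 of 21 (33.3%), against 13.6% of all windows: Acat2, Cyp51, Msmo1, Hsd17b7, Dhcr7, Srebf1 and Insig1. An E-box (CACGTG) was found at Sc5d and Insig1 (9.52%, against 5.59%), and the core of the sterol regulatory element (TCACNCCAC) at 0 of 21, against 0.974% of all windows. The windows of all genes include those of non-coding genes, a match is a run of letters and not a bound site, and no match says only that these letters are not in this window. The shares of the 21 count genes with a match in any of their windows, while the shares of all windows count single windows. The window of Scd held no match to any of the 4 motifs, but its listed start lies 370 bases inside the gene model, so the window is not the sequence before the first start of the gene.

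The sequences before the starts of the other 4 genes that rose are shown, 5′ to 3′ on the strand of the gene, since they differ in which motif they hold. Capitals mark the matches to the KLF box or the CCAAT box, on either strand. The Tm7sf2 window ends 31 bases before the listed start, where the gene model begins, and Srebf1 has an internal start 10154 bases inside the gene model besides the upstream one.
Acat2, chr1:50100590-50100839, plus strand: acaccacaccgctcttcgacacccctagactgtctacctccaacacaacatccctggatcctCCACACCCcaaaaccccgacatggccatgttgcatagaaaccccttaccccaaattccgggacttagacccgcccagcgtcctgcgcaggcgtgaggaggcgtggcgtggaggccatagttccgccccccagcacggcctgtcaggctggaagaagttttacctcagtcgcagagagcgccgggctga
Dhcr7, chr1:208444184-208444433, plus strand: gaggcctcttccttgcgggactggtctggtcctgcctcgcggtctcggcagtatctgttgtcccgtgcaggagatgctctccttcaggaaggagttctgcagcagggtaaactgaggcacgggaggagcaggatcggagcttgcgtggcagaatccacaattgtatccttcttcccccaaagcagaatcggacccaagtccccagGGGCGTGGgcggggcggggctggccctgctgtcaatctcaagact
Tm7sf2, chr1:212789573-212789791, minus strand: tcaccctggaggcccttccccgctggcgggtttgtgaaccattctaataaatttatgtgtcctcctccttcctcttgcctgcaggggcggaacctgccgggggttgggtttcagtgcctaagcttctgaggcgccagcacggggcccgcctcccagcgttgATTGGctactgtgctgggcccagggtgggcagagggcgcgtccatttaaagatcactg
Srebf1, upstream start, chr10:45529165-45529414, minus strand: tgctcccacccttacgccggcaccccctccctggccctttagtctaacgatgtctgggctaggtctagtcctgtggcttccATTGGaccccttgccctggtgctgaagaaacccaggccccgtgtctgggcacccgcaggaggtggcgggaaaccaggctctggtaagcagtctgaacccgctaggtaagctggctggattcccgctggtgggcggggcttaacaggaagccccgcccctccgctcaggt
Srebf1, internal start, chr10:45519011-45519260, minus strand: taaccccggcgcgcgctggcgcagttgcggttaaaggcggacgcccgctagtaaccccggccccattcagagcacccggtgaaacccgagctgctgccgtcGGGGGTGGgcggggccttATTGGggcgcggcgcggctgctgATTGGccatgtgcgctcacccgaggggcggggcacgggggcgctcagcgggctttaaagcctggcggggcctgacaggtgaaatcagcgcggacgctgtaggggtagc
Acat2 and Dhcr7 each hold 1 KLF box and no CCAAT box, Tm7sf2 holds a CCAAT box and no KLF box, and Srebf1 holds a CCAAT box before the upstream start, and a KLF box and a pair of CCAAT boxes before the internal start. KLF boxes were thus found at 3 of these 4 genes, at Srebf1 only before the internal start, and not in the window of Scd, which also rose. They were also found at Insig1, Cyp51, Msmo1 and Hsd17b7, which did not pass.

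Other genes of lipid handling, from lists that are not part of the 28, give the surroundings of these values. Of 54 such genes 51 were tested: 2 rose, 1 fell and 48 did not pass, and their median difference was 0.00. The 2 rises are 3.92% of the 51, near the 3.20% of all features that rose, while 0.467% of all features fell. An unadjusted p under 0.05 (limma) was found at 9 of the 51, and at 3577 of all 29988 features. Of the genes that process SREBPs 0 of 3 passed with limma (0 at an unadjusted p under 0.05), with Scap, their escort, at 0.21 (SE 0.18, limma adjusted p = 0.773).

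Uptake, transport and efflux of sterols showed no call, 0 of 13 tested, with 2 genes at an unadjusted p under 0.05. Apoe, the lipid carrier of glia, differed by -0.55 (SE 0.39) and the cholesterol exporter Abca1 by 0.24 (SE 0.17). Of 22 other genes of fatty acid and lipid synthesis 2 rose. Acsl1, which activates long-chain fatty acids to their CoA esters, read 2.65, 2.24, 2.52 and 1.91 in the controls and 3.81, 3.07, 3.80 and 3.77 with Klf4, a difference of 1.28 (SE 0.23, limma adjusted p = 0.0176). Elovl1, an elongase of very long saturated chains, went from 2.46 ± 0.08 to 2.99 ± 0.09 (SD, n = 4 each), a difference of 0.53 (SE 0.12, limma adjusted p = 0.0435). The desaturase gene Fads2 differed by 0.04 (SE 0.14).

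In fatty acid oxidation 1 of 9 tested genes fell and 8 did not pass. This was Cpt1a, the gatekeeper of fatty acid entry into mitochondria, which read -1.96, -1.86, -1.54 and -2.21 in the controls and -2.63, -2.47, -3.16 and -2.90 with Klf4. The groups did not overlap, and the difference was -0.90 (SE 0.20, limma adjusted p = 0.0484). Leaving out 1 array ended the call of Cpt1a in every case but control replicate 5 (adjusted p up to 0.152), that of Elovl1 in every case but Klf4 replicate 4 (up to 0.146), and that of Acsl1 without control replicate 3 or Klf4 replicate 2 or 5 (up to 0.0711). In the first scan alone all 3 lost their call (0.114, 0.135 and 0.105), and with the replicate number as a block Cpt1a (0.107) and Elovl1 (0.0873) did. Of the 21 alternatives, Cpt1a kept its call in 9, Elovl1 in 8 and Acsl1 in 16.

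**Figure D4:**
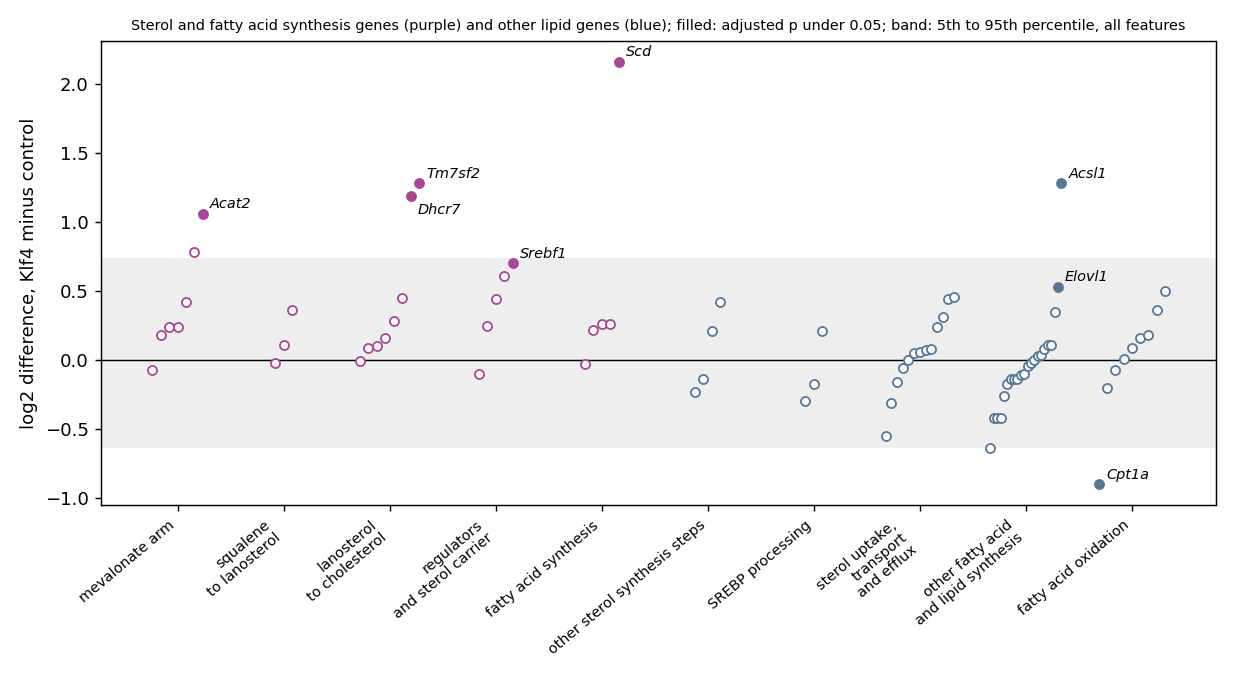
Log2 difference between Klf4 and control (vertical axis) of each tested gene of the 5 groups of sterol and fatty acid synthesis genes (purple) and of 5 lists of other lipid genes (blue). Filled points, named, have an adjusted p under 0.05: 5 of 28 purple ones, all above 0, and 3 of 51 blue ones, of which Cpt1a (-0.90) lies below 0; the band is the 5th to 95th percentile of all features (-0.63 to 0.73).

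In sorted bulk cells, fewer cells of a type and less RNA per cell cannot be told apart, so markers of the cell types the sort could hold are given beside these values. Counts of calls and the median difference describe each list, followed by the range of its summed signal in multiples of the 75th percentile signal. Over all features 3.20% rose and 0.467% fell, and 3577 of 29988 had an unadjusted p under 0.05 (limma). A sum adds probes of unlike brightness and follows the brightest of them.

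Markers of retinal progenitors (9 genes) had no call with limma (2 at an unadjusted p under 0.05) and a median difference of 0.11, and summed to 66.2 to 103 in the controls and 80.1 to 93.4 with Klf4. Of 8 photoreceptor markers 3 fell, Rbp3, Crx and Rxrg, and all 8 lay below 0, with a median of -0.63. Their sum, 157 to 202 in the controls and 101 to 203 with Klf4, was 83.9% to 87.5% Otx2, so it says little of the list. Of 5 tested ganglion cell markers Atoh7 and Gap43 rose (median 0.94, sums 1.35 to 1.57 and 3.52 to 5.48). Atoh7 made up 20.8% to 65.6% of that sum. Rbpms (0.94), Isl1 (0.12) and Pou4f2 (-0.25) did not pass, so the sum does not stand for the list. Ptf1a rose among 6 amacrine and horizontal cell markers (median -0.19), whose sum, 119 to 163 and 123 to 152, was at least 86.5% Prox1. The 4 tested Muller glia markers (median -0.19, sums 11.7 to 16.2 and 11.6 to 14.0) and the 5 of astrocytes and oligodendrocytes (median -0.40, sums 8.16 to 11.6 and 10.1 to 18.0) had no call with limma (0 and 2 at an unadjusted p under 0.05).

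Outside the neural retina, C1qb rose among 5 tested microglia markers (median 0.13, sums 4.09 to 5.38 and 4.68 to 5.39). Among 4 of endothelium Tek rose (2.38) and Esam passed the threshold, while Cdh5 (-0.01) and Kdr (0.03) did not pass. The median of that list, 1.2, counts Esam and does not stand for the list. Its sum, 94.2 to 114 and 87.7 to 156, was at least 98.0% Kdr. Esam was well above background on 0 control arrays and 3 Klf4 arrays, so it passed the filter only through the Klf4 arrays. Its control level is background, and the size of its rise is not measured. With normexp its difference was 1.02 (limma adjusted p = 0.0878). Col1a1 rose among 3 of pericytes and fibroblasts (median -0.17) and made up at least 87.9% of their sum (2.63 to 3.42 and 6.23 to 8.04). The 3 tested lens markers had no call with limma, with 0 at an unadjusted p under 0.05 (median 0.09, sums 0.366 to 1.24 and 0.424 to 0.531). Atoh7, Tek and Col1a1 kept their call in all 21 alternatives and Esam in 18 of 20. Rbp3 kept it in 17 of 21, C1qb in 16, Gap43 in 13, Crx and Ptf1a in 10 each and Rxrg in 9, with adjusted p up to 0.178. Too dim to pass the filter were Ptprc of microglia, Pecam1 and Cldn5 of endothelium, Rgs5 and Dcn of pericytes and fibroblasts, Aqp4 of Muller glia, Sncg and Nefl of ganglion cells, Bfsp1 of lens, and all markers of pigment epithelium on the array. The part of these cell types in the values of the sterol and fatty acid genes was not tested.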

How the data were processed

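Gene expression was measured on 8 single-colour (Cy3) Agilent arrays. Per the file headers, spots were extracted with Feature Extraction 10.7.3.1, and the headers name build rn4. The deposited intensity values are signals from which that software had removed background and spatial trend, with no scaling across arrays. The same software set the deposited flags (unit other) that mark control spots, spots well above background, saturation and outliers. The authors also deposited log2 values in a table of 45735 rows; each column has a median of 7.54, its deciles differ between columns by at most 0.000787, and it correlates best with its own array (8 of 8, r at least 0.9937). Its direction is that of the signals and its genes are not centred. Its method was not given in the sources used here. The authors' values and quantile normalization called the same 4 of the 28 genes, with Scd at 2.20 in both. These alternatives are therefore not separate checks.

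Control spots were left out, as were 324 to 421 outlier gene spots per array, and 0 gene spots were saturated. Log2 signals were averaged over the spots of a probe, less the 75th percentile of the array. Of 45598 gene probes, 21109 had 1 symbol by accession in a RefSeq table (GRCr8), 24489 none and 0 several. A probe was kept where well above background on at least 3 of 4 arrays of a group, and a gene was its kept probe with the highest mean (10 of the 28 genes had over 1). The comparison used R 4.3.3 and limma 3.58.1, lmFit then eBayes, with no covariates. It was also run on simulated data whose noise was independent between arrays. That run does not cover effects shared by a scan or a replicate number. The number of arrays limits the precision. Within each group, the closest pair of arrays differed by an SD of 0.36 in log2, so none was a copy of another. For normexp (offset 50), the median spot signal stood in for the mean, which was not used here. Python 3.11.15 with matplotlib 3.10.9 drew the figures. All 28 genes are named; of the other lipid genes those past the threshold and a few fixed names, some of which are not reported here; of each cell type list at most 3 past the threshold. The genes and lists were chosen with earlier results of these data known.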

Additional observations from a re-analysis of the deposited data

Results flagged for a closer look

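Among 55 sets of 4 arrays (28 genes, 2 groups, 1 set with 3 arrays left out), 7 held a value whose gap to its nearest neighbour was above the 95% critical share of the group's range by Dixon's test, where chance gives about 1 in 20 groups. On control replicate 5, Sqle was at 2.91 (the other controls at 2.06 to 2.14) and Ebp at 2.24 (1.84 to 1.88). On control replicate 3, Tm7sf2 was at -2.17 (-2.58 to -2.55). On Klf4 replicate 5, Srebf2 was at 3.14 (the other Klf4 arrays at 2.63 to 2.70), Insig1 at 2.19 (1.89 to 1.92) and Scd at -0.29 (-0.76 to -0.71). On Klf4 replicate 4, Elovl6 was at 2.60 (1.55 to 1.68). Of the 7, 5 lie on the arrays numbered 5, those of the second scan.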

How the results depend on the processing

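The 8 results given as counts or medians and the named genes were recomputed under 21 alternatives, 8 of which left out 1 array. The median difference of the 28 genes stayed between 0.19 and 0.32, and 0 of them were lower in any alternative. The number of the 28 genes higher with Klf4, 5 as reported, was 3 with no filter on dim probes and with the mean over probes, 2 in the first scan alone, 8 with array weights, and 2 to 5 with 1 array left out; it was 2 on leaving out any 1 of control replicates 2 to 4 or of Klf4 replicates 2, 3 and 5, these being Scd and Tm7sf2 each time. Of the other lipid genes, 2 higher and 1 lower as reported, 1 was higher with the array median, no filter (0 lower), the slide row as a block (0 lower) and the replicate block (0 lower), 0 were called in the first scan alone or without both arrays numbered 4, and 5 higher and 4 lower with array weights; with 1 array left out they were 0 to 4 higher and 0 to 1 lower. Over all features, 961 higher and 140 lower as reported, the lower count was 93 with the array median, 70 with no filter and 255 with the scan as a block; the counts were 635 and 48 in the first scan alone, 1846 and 1269 with array weights, and 604 to 1221 and 32 to 406 with 1 array left out. The cause was not tested for any of these.

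Of the named genes, those whose difference turned its sign in an alternative had not passed. Nsdhl and Elovl6 did so in 6 alternatives each, Acaca (0.26 as reported) and Fdft1 in 4 each, Fads2 in 3, and Sqle and Ebp in 1 each. With quantile normalization Nsdhl was at 0.04, and with the authors' values at 0.03. With the array median Fdft1 was at 0.01 and Nsdhl at 0.02, with the mean over probes Acaca at -0.19, with array weights Acaca at -0.06, and in the first scan alone Elovl6 at 0.02. Without both arrays numbered 4, Nsdhl was at 0.07, Ebp at -0.01 and Acaca at -0.07. With 1 array left out, Fdft1 ran from -0.08 to 0.03, Sqle from -0.06 to 0.31, Nsdhl from -0.12 to 0.06, Acaca from -0.07 to 0.44, Elovl6 from -0.28 to 0.10 and Fads2 from -0.02 to 0.11.

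Arrays of the same number in both groups deviated together with r across features of 0.36, 0.24, 0.06 and 0.55 for numbers 2 to 5, and 6 of 8 arrays correlated best with their own number, a hint from the data and not the design. The numbers were not taken to pair the arrays. With the replicate number as a block 5 of the 28 genes were higher, 4 of them the same (Hmgcs1 in place of Acat2), Crx (adjusted p = 0.061 with limma) and Rxrg (0.0861) lost their calls, Elovl6 was at 0.07, and 841 features were higher and 101 lower.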
